A study of Mus musculus with 6 samples.

Results

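The adult globin genes, an alpha-globin chaperone gene and haem synthesis genes were followed in RNA from bone marrow neutrophils of stressed and unstressed mice. They served as a readout of red cell transcripts in a sorted white cell preparation. The genes are the beta-globin genes Hbb-bs and Hbb-bt, the alpha-globin genes Hba-a1 and Hba-a2, the alpha-globin chaperone gene Ahsp, and the haem synthesis genes Alas2, Alad, Urod and Fech. They were taken by symbol, 9 of the 47561 rows of the tables, and each symbol had a single row. The series compared 3 libraries from mice kept through chronic unpredictable mild stress (CUMS), a rodent protocol of varied mild stressors used to induce depression-like behaviour, with 3 libraries from Control mice. All mice were male and wild type (WT). The CUMS mice went through 4 weeks of stressors, and the cells of both groups were neutrophils from bone marrow, isolated by flow cytometry per the design text. The sources used here do not state strain, age, the sorting markers or how many animals stand behind a library, so p-values measure the spread between these libraries, which may be technical.

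Haemoglobin carries oxygen in red cells as a tetramer of alpha and beta chains, each holding a haem. Haem is built from glycine and succinyl-CoA by a pathway that starts in the mitochondrion, passes through the cytosol and ends in the mitochondrion again. Its entry enzyme, 5-aminolevulinate synthase, has an erythroid form encoded by Alas2 and a form used in most other tissues encoded by Alas1, whereas the later enzymes are single genes used by nearly all cells and raised in erythroblasts. Marrow erythroblasts and reticulocytes hold very large amounts of globin mRNA, and mature mouse red cells have no nucleus. Haemoglobin genes are not part of the usual neutrophil programme, and globin transcripts serve here as a measure of red cell lineage RNA in a neutrophil preparation. In bulk libraries of this kind a change in the number of such cells and a change in the RNA each one holds cannot be told apart.

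The paired globin genes are near copies, which limits what the counts of each single gene can say. The coding sequences of Hbb-bs and Hbb-bt differ at 1 of 444 bases including the stop codon, and those of Hba-a1 and Hba-a2 at 1 of 429, by the GENCODE M21 transcripts on GRCm38. The stretches around these single differences are shown here, 5′ to 3′, with the differing base in capitals. They cover coding bases 387 to 444 of the beta genes and 351 to 411 of the alpha genes.
Hbb-bs: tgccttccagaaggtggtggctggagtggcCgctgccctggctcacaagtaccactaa
Hbb-bt: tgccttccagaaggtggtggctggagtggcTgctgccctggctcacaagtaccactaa
Hba-a1: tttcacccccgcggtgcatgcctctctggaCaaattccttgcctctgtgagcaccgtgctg
Hba-a2: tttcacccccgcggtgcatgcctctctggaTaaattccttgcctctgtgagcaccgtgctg
Over whole transcripts, 58.7% of all 150-base windows of Hbb-bs occur unaltered in Hbb-bt, and 48.4% of those of Hba-a1 occur in Hba-a2. A read from such a window fits both copies. How the deposited tables divided those reads was not stated, so the split within each pair is uncertain, and the sums of alpha and of beta counts are the firmer values.

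The promoters of 4 of these genes, and for comparison that of the broadly used Urod, are shown because the globin genes and Alas2 moved together in the results that follow while Urod did not pass the test. Each is the 250 bases before the RefSeq start site on GRCm38.p6, 5′ to 3′ on the strand of the gene. The windows are chr7:103827929-103828178 (minus strand) for Hbb-bs, chr7:103813924-103814173 (minus) for Hbb-bt, chr11:32283422-32283671 (plus) for Hba-a1, chrX:150547167-150547416 (plus) for Alas2 and chr4:116994414-116994663 (minus) for Urod. Capitals mark matches on either strand to the GATA forms (AGATAA or AGATAG, likewise TGATAA or TGATAG), to the CACC box CACCC, to the CCAAT box and to the TATA form ATATAA.
Hbb-bs: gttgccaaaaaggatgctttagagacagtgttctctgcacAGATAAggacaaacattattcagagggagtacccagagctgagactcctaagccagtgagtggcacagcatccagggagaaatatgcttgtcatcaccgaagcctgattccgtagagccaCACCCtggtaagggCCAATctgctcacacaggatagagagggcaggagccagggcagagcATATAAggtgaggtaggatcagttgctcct
Hbb-bt: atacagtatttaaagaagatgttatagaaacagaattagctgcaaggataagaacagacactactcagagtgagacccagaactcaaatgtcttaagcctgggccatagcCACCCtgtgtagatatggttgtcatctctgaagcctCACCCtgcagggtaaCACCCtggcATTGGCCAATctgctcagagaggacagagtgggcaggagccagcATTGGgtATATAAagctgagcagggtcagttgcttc
Hba-a1: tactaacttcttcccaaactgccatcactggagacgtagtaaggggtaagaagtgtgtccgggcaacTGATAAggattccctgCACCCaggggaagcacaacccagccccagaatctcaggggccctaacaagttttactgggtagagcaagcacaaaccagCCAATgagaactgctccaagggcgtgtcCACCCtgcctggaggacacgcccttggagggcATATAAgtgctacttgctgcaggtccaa
Alas2: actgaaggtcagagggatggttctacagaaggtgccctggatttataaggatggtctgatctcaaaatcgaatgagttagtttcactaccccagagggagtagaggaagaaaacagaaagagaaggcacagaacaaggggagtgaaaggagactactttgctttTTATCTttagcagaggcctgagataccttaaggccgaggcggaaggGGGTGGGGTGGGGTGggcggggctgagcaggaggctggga
Urod: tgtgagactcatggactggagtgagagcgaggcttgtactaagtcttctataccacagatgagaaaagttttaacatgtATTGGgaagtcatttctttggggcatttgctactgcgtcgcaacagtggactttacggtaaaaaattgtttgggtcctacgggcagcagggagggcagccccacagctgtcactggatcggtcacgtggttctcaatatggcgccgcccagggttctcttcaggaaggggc
The 2 beta-globin promoters and the alpha-globin promoter each held the CACC box, the CCAAT box and the TATA form in this window, a combination found in 1.36% of 32851 RefSeq promoter windows of the same length. Singly, CACCC was present in 52.0% of those windows, CCAAT in 33.8%, ATATAA in 9.1% and a GATA form in 26.5%. The ATATAA match ended 25, 24 and 23 bases before the start in Hbb-bs, Hbb-bt and Hba-a1. A GATA form was matched once in Hbb-bs, Hba-a1 and Alas2 and in no position of the Hbb-bt and Urod windows. In Alas2, CACCC matched 3 times, all on the opposite strand. The Hba-a2 window was identical to that of Hba-a1 over 247 aligned bases. GENCODE M21 places the gene starts of Hbb-bs, Hbb-bt, Hba-a1 and Alas2 farther upstream than RefSeq, by 168, 73, 161 and 42 bases, within the windows shown. Matches that lie after the GENCODE start number 3 of 4 in Hbb-bs, 2 of 7 in Hbb-bt, 3 of 5 in Hba-a1 and 3 of 4 in Alas2, the last being its CACCC matches. Alad, which also did not pass, had 2 promoter windows that are not shown. CCAAT matched 2 times in the first and 1 time in the second, and CACCC matched 1 time in the second. The windows shown were picked with the results known. The matches describe the letters of the windows and were not tested against the expression values.

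The deposited values are estimated counts in which 1 read pair is worth about 4. They summed to between 85799370 and 109757558 per CUMS library and between 78845457 and 103483602 per Control library. Levels are given as CPM, the estimated count relative to the library total after scaling between libraries by the trimmed mean of M-values (TMM). The neutrophil label held in both groups: the neutrophil alarmin gene S100a9 ranged from 29065 to 39454 CPM in CUMS and from 33828 to 43455 CPM in Control, and the neutrophil surface marker gene Ly6g from 381 to 492 CPM in CUMS and from 439 to 480 CPM in Control. In edgeR's quasi-likelihood test, 710 of 15778 genes passed at an adjusted p of 0.05 (4.5%), 2.36% higher in CUMS and 2.14% lower. All 9 genes followed here entered that test. Of them, 6 rose in CUMS and 0 fell, namely the 4 globin genes, Alas2 and Fech. Ahsp, Urod and Alad did not pass.

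Beta-globin transcripts were about 1.75-fold more abundant in CUMS libraries. Hbb-bs, the more abundant of the adult beta-globin genes here (chromosome 7, 103826534 to 103828096 on GRCm38, minus strand, 3 exons), measured 1020, 871 and 849 CPM in CUMS replicates 1 to 3, against 506, 636 and 427 CPM in Control replicates 1 to 3. All CUMS values lay above all Control values, with CUMS replicate 1 the highest library of all and Control replicate 2 the highest of its group. Its log2 fold change was 0.80 ± 0.12 (SE), with an edgeR adjusted p of 0.00251. Hbb-bt, its neighbour on the same strand (103812524 to 103813996), measured 467, 381 and 398 CPM in CUMS and 222, 283 and 196 CPM in Control. The libraries stood in nearly the same order as for Hbb-bs, CUMS replicates 2 and 3 being exchanged. The log2 fold change of Hbb-bt was 0.83 ± 0.11 (SE; edgeR adjusted p = 0.00183).

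Alpha-globin transcripts showed a rise of nearly the same size. Hba-a1 (chromosome 11, 32283511 to 32284465, plus strand, 3 exons) measured 817, 697 and 693 CPM in CUMS and 424, 522 and 371 CPM in Control, a log2 fold change of 0.74 ± 0.10 (SE; edgeR adjusted p = 0.00199). Hba-a2, the other adult alpha-globin gene (32296489 to 32297298), measured 626, 507 and 514 CPM in CUMS and 309, 391 and 280 CPM in Control, a log2 fold change of 0.75 ± 0.11 (SE; edgeR adjusted p = 0.0027). As with the beta genes, the groups did not overlap, CUMS replicate 1 was highest, and Control replicate 2 lay nearest to the CUMS libraries. Non-overlapping groups were seen in 22.9% of all genes tested, and 11.5% had every CUMS library above every Control library. The 4 globin calls held in all 14 alternative fits, with the lowest and highest log2 fold changes at 0.64 (Hba-a1) and 0.99 (Hbb-bt), both from fits that left out 1 Control library.

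**Figure D1:**
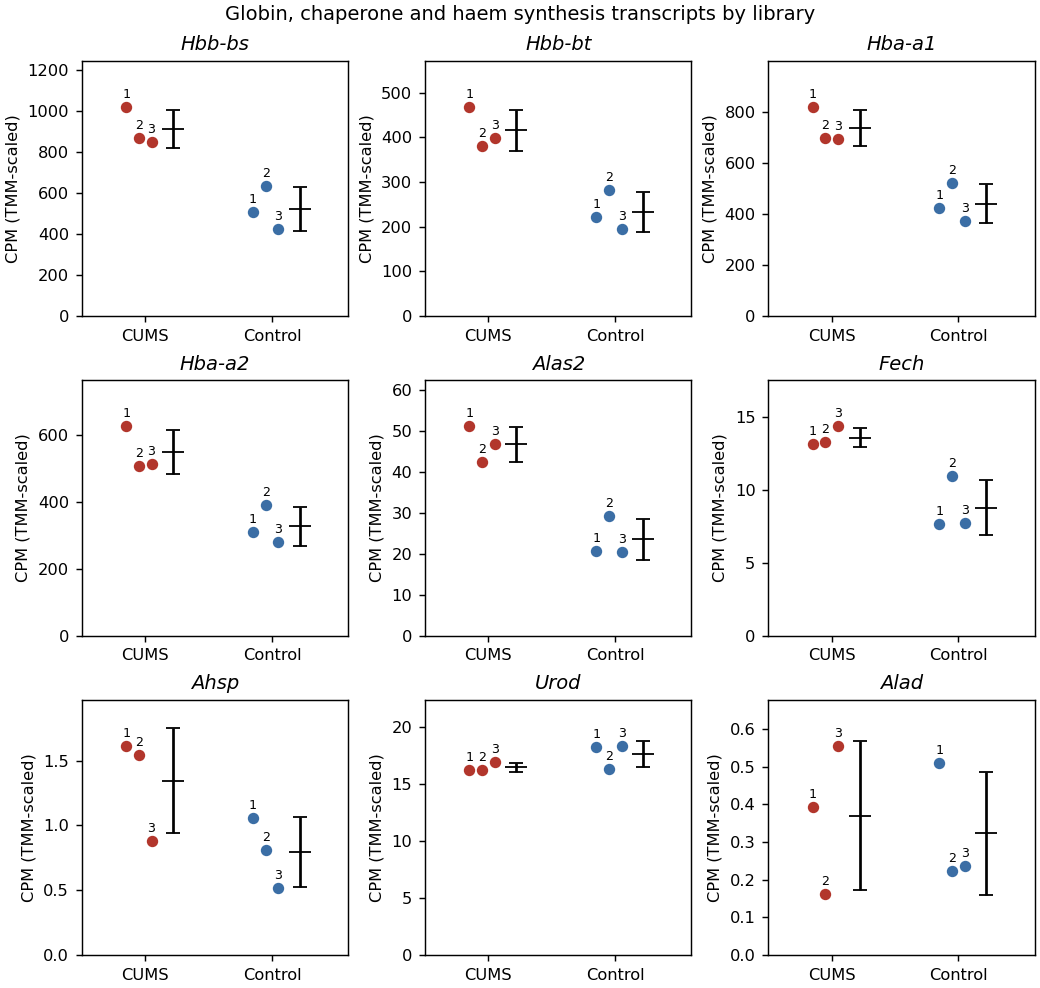
TMM-scaled CPM (y axes, each from 0) of the 9 genes in the 3 CUMS libraries (red, left) and the 3 Control libraries (blue, right), with the replicate number above each point and the group mean and SD as black bars. The 4 globin genes, Alas2 and Fech are separated between the groups, whereas Ahsp, Urod and Alad overlap.

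The embryonic and minor globin genes had no counts or very few. Hbb-y, Hbb-bh1, Hbb-bh2 and Hba-x, which are embryonic or fetal members of the clusters, had no counts in any library. Each was either at 0 throughout or without a row of its own. Of 12 other globin genes listed for comparison, the theta-like Hbq1a and Hbq1b entered the test, at means of 0.22 and 0.256 CPM in CUMS and 0.0988 and 0.0511 CPM in Control, near the floor of 3 read pairs per library (0.109 to 0.152 CPM), and neither passed (edgeR adjusted p = 0.705 and 0.452).

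Within each library the globin genes kept nearly constant proportions. Counts of Hbb-bs were 2.18, 2.29 and 2.13 times those of Hbb-bt in CUMS replicates 1 to 3 and 2.28, 2.25 and 2.18 times in Control replicates 1 to 3, and the groups overlapped. Counts of Hba-a1 were 1.31, 1.37 and 1.35 times those of Hba-a2 in CUMS and 1.37, 1.34 and 1.33 times in Control, also overlapping. The ratios within each pair depend on how shared reads were divided, which was not stated. Whether that division keeps them level was not tested. The ratio of summed alpha to summed beta counts was 0.971, 0.963 and 0.968 in CUMS, against 1.01, 0.993 and 1.05 in Control. Here the groups did not overlap, although their means, 0.967 ± 0.0041 in CUMS and 1.02 ± 0.027 in Control (SD, n = 3 each), stood only 0.953-fold apart. Alpha and beta genes took 0.129% ± 0.011 and 0.133% ± 0.011 of all estimated counts in CUMS, and 0.0764% ± 0.013 and 0.0755% ± 0.015 in Control. Together the 4 genes took 0.288%, 0.249% and 0.248% in CUMS replicates 1 to 3, against 0.146%, 0.183% and 0.127% in Control replicates 1 to 3, a 1.72-fold ratio of means. These sums run over genes chosen with earlier results known and carry no p-value.

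**Figure D2:**
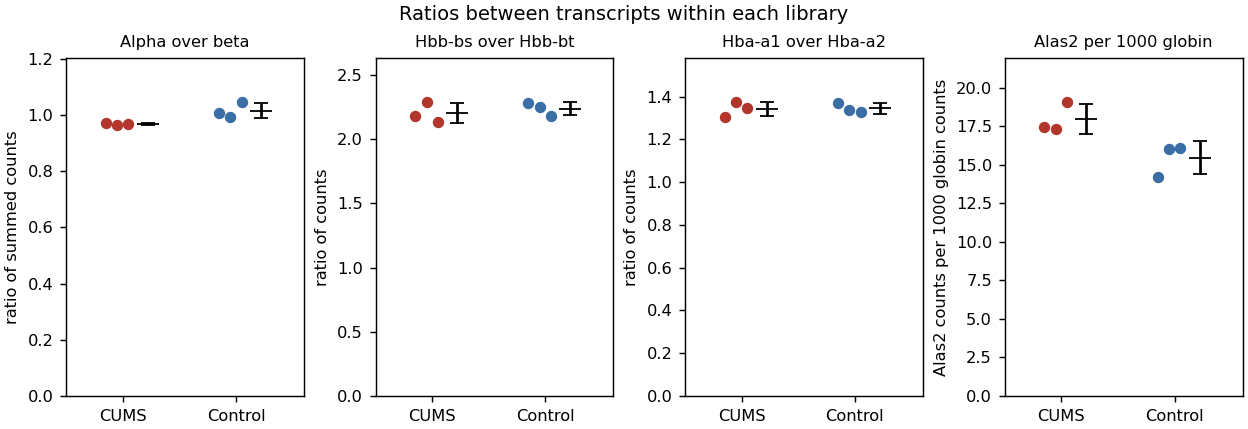
Ratios of estimated counts between transcripts of the same library (y axes from 0) in CUMS (red, left) and Control (blue, right), with group means and SD as black bars. The ratios within the beta pair and within the alpha pair overlap between groups, alpha over beta lies at 0.963 to 0.971 in CUMS and 0.993 to 1.05 in Control, and Alas2 per 1000 globin counts at 17.3 to 19.1 in CUMS and 14.2 to 16.1 in Control.

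Ahsp encodes a chaperone that binds free alpha chains before they pair with beta chains, and its transcript was scarce here. It measured 1.62, 1.55 and 0.879 CPM in CUMS and 1.06, 0.813 and 0.518 CPM in Control, about 23.8 to 43 read pairs per CUMS library and 11 to 21 per Control library. CUMS replicate 3 lay below Control replicate 1, so the groups overlapped. The log2 fold change, 0.76 ± 0.36 (SE), was close to those of the globin genes but did not pass (edgeR adjusted p = 0.317), in this or any of 14 alternative fits. Ahsp counts per 1000 globin counts were 0.551, 0.63 and 0.358 in CUMS and 0.723, 0.444 and 0.407 in Control. A change in Ahsp of that size was not told apart from 0 at these counts with 3 libraries per group. Whether depth or the spread between libraries kept Ahsp from passing was not tested.

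Alas2, the erythroid entry enzyme of haem synthesis, had the largest rise of the 9 genes among those that passed. The gene lies on chromosome X at 150547375 to 150570638 on GRCm38 (plus strand, 11 exons in its longest coding transcript), and its mRNA is known to be held back from translation when iron is short. It measured 51.2, 42.5 and 46.8 CPM in CUMS, against 20.8, 29.3 and 20.5 CPM in Control. Every CUMS library lay above every Control library, and Control replicate 2 was again the highest of its group. The log2 fold change was 0.99 ± 0.13 (SE; edgeR adjusted p = 0.00111), and the call held in all 14 alternative fits, from 0.90 to 1.18. Alas2 counts per 1000 globin counts were 17.5, 17.3 and 19.1 in CUMS and 14.2, 16 and 16.1 in Control, again without overlap.

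Alas1 fell while Alas2 rose. Alas1 encodes the synthase used outside the red cell lineage and, at 109, 108 and 110 CPM in CUMS against 133, 126 and 130 CPM in Control, it was lower in every CUMS library. Its log2 fold change of -0.25 ± 0.043 (SE; edgeR adjusted p = 0.00674) was negative and past the threshold in all 14 alternative fits. Per kilobase of the longest coding transcript, Alas1 measured 32 ± 0.26 CPM in CUMS and 38.1 ± 1.1 CPM in Control, above Alas2 at 23 ± 2.1 CPM in CUMS and 11.5 ± 2.5 CPM in Control (SD, n = 3 each). Counts of Alas1 were 2.13 to 2.54 times those of Alas2 in the CUMS libraries and 4.3 to 6.42 times in the Control libraries.

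Among the enzymes after the entry step, the last one rose and the members between did not pass. Fech encodes ferrochelatase, which inserts iron into protoporphyrin, and lies on chromosome 18 at 64452914 to 64490251 on GRCm38. It measured 13.1, 13.3 and 14.4 CPM in CUMS and 7.67, 10.9 and 7.75 CPM in Control, a log2 fold change of 0.63 ± 0.14 (SE; edgeR adjusted p = 0.0266). The groups did not overlap, but the call ended without any single library other than Control replicate 2 (edgeR adjusted p 0.0548 to 0.121) and with no filter on low counts (0.0639), at log2 fold changes that stayed between 0.54 and 0.65.

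Urod, which encodes the decarboxylase that makes coproporphyrinogen in the cytosol (chromosome 4, 116989965 to 116994413), measured 16.3, 16.2 and 16.9 CPM in CUMS and 18.2, 16.3 and 18.4 CPM in Control. Its log2 fold change was -0.10 ± 0.085 (SE; edgeR adjusted p = 0.647), and CUMS and Control libraries overlapped. Alad, which encodes the enzyme that joins 5-aminolevulinate into porphobilinogen (chromosome 4, 62509169 to 62519918), was scarce, at 0.392, 0.162 and 0.555 CPM in CUMS and 0.51, 0.223 and 0.236 CPM in Control. That is 4.5 to 15 read pairs per CUMS library and 5 to 10 per Control library. Its log2 fold change of 0.20 ± 0.64 (SE; edgeR adjusted p = 0.932) is smaller than its own error, and no direction can be read from so few read pairs.

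The 5 haem synthesis genes outside the list of 9 gave 1 rise, 1 fall and 3 that did not pass. The fall was Alas1. The rise was Cpox, which encodes coproporphyrinogen oxidase of the mitochondrial intermembrane space, at 0.772, 1.52 and 1.92 CPM in CUMS and 0.586, 0.358 and 0.507 CPM in Control. Cpox had a log2 fold change of 1.54 ± 0.39 (SE; edgeR adjusted p = 0.0488), and its call ended under the replicate block (0.0741), with no filter (0.0957), and whenever 1 library other than CUMS replicate 1 was left out (0.0801 to 0.233). Uros, the uroporphyrinogen III synthase gene, averaged 2.74 ± 0.37 CPM in CUMS and 2.82 ± 0.00081 CPM in Control (SD, n = 3 each). Ppox, which encodes the enzyme before ferrochelatase, averaged 93.9 ± 4.8 CPM in CUMS and 93.1 ± 4.5 CPM in Control. Its log2 fold change was 0.01 ± 0.055 (SE), and that of Uros was -0.04 ± 0.18 (edgeR adjusted p = 0.951 for both).

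**Figure D3:**
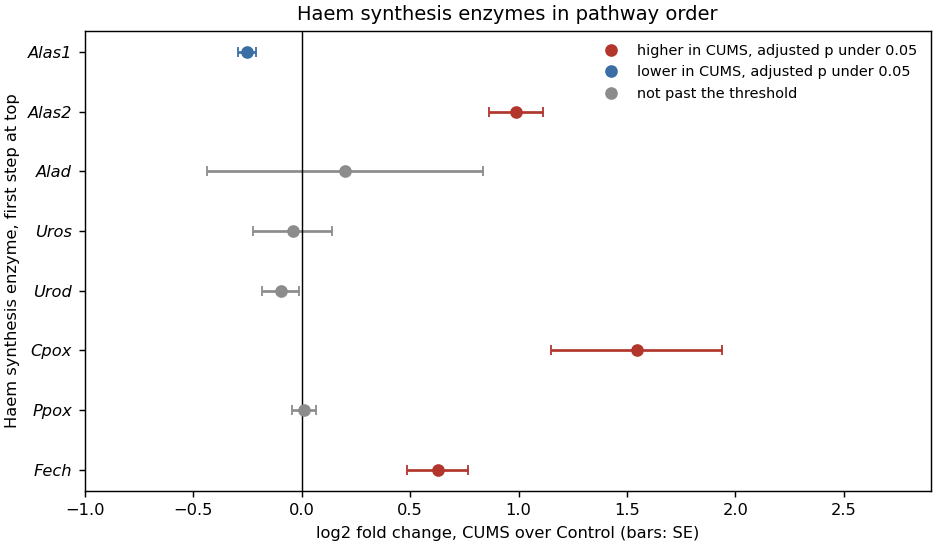
Log2 fold change of CUMS over Control with its SE (x axis) for 8 haem synthesis enzymes in pathway order from the top (y axis). Alas2, Cpox and Fech are past the threshold upward (red), Alas1 downward (blue), and the remaining enzymes are not past it (grey).

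Per kilobase, the haem synthesis genes spanned a wide range of levels in these cells. Ppox stood highest at 51.5 ± 2.6 CPM per kilobase in CUMS and 51.1 ± 2.5 in Control (SD, n = 3 each), followed by Alas1, Alas2 and Urod, the last at 11.1 ± 0.26 in CUMS and 11.8 ± 0.78 in Control. In Control, Alas2 and Urod did not differ beyond their spread. Fech and Uros lay between 1.34 and 2.07 CPM per kilobase by group mean, and Cpox and Alad below 0.5. Globins were far above them, Hbb-bs at 1454 ± 148 CPM per kilobase in CUMS and 833 ± 168 in Control, Hba-a1 at 1053 ± 101 in CUMS and 628 ± 110 in Control, and Hbb-bt the lowest of the 4 at 591 ± 65 in CUMS and 332 ± 63 in Control. Hba-a2 ran from 916 to 1130 CPM per kilobase in CUMS and from 505 to 706 in Control. These ranges overlapped those of Hba-a1, at 991 to 1169 in CUMS and 531 to 747 in Control. Both genes were measured in the same libraries, so the spread between libraries is not the error of their difference. The split of their shared reads is also uncertain.

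Genes that supply the mitochondrion for haem synthesis gave no call. Of 18 tested, 0 passed with edgeR in either direction, 0 with DESeq2 and 0 at an unadjusted edgeR p under 0.05, with a median log2 fold change of -0.02 beside -0.0073 over all genes tested. Slc25a37, the mitochondrial iron importer mitoferrin and the most abundant of them, measured 238, 268 and 253 CPM in CUMS and 235, 247 and 242 CPM in Control. Slc25a38, the erythroid glycine carrier, had a log2 fold change of 0.14 ± 0.083 and the glutathione carrier gene Slc25a39 of 0.26 ± 0.13 (SE; edgeR adjusted p = 0.434 and 0.346). Clpx, an unfoldase subunit that activates the synthase in mitochondria, had -0.20 ± 0.093 (edgeR adjusted p = 0.296). Of 9 genes listed as haem-responsive regulators, Eif2ak1, the haem-regulated kinase that slows translation, fell by 0.20 ± 0.049 (SE; edgeR adjusted p = 0.0384), and 0 rose. That call ended with no filter (0.0774) and whenever 1 library other than CUMS replicate 1 was left out (0.0637 to 0.163). Hmox1, the haem oxygenase gene, and Bach1, its haem-binding repressor, had -0.15 ± 0.063 and 0.10 ± 0.048 (edgeR adjusted p = 0.249 and 0.348).

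Some other genes of the red cell lineage also rose in CUMS. Of 35 erythroid markers listed, 33 were tested, 8 rose, 0 fell and 25 did not pass, with a median log2 fold change of 0.63 beside -0.0073 over all genes tested. Slc4a1, the band 3 anion exchanger of the red cell membrane, measured 16.1, 14 and 19.6 CPM in CUMS and 5.89, 8.26 and 7.5 CPM in Control (log2 fold change 1.20 ± 0.15 SE; edgeR adjusted p = 0.00111). Car2, a carbonic anhydrase gene, rose by 1.21 ± 0.175 and Bpgm, whose enzyme makes the red cell's 2,3-bisphosphoglycerate, by 0.75 ± 0.14 (SE; edgeR adjusted p = 0.00251 and 0.0101). Tent5c, a poly(A) polymerase gene, rose by 0.49 ± 0.08 (edgeR adjusted p = 0.00507). The Bpgm call ended without Control replicate 3 (adjusted p = 0.0542). Tmcc2, the water channel gene Aqp1 and the membrane skeleton gene Epb42 also rose, the last 2 named after their values were seen. The count of 8 fell to 4 or 5 when any 1 library other than CUMS replicate 3 was left out, and to 5 with no filter on low counts.

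Of the regulators of early red cell development, also named after their values were seen, Gata1, Klf1 and Epor were close to the detection floor. Gata1 had 4, 16 and 15 estimated counts in CUMS and 17, 16 and 7 in Control, where 12 estimated counts equal 3 read pairs. Klf1 had 17, 13 and 19 in CUMS and 4, 14 and 23 in Control, and the erythropoietin receptor gene Epor 23, 15 and 27 in CUMS and 15, 15 and 0 in Control. No direction can be read for these 3 genes at this depth. Tal1, which encodes another transcription factor of early blood and red cell development, was well above the floor at 5.38, 4.64 and 6.06 CPM in CUMS and 6.91, 6.08 and 7.72 CPM in Control. Its groups did not overlap, with CUMS on the lower side, and its log2 fold change of -0.36 ± 0.15 (SE) did not pass (edgeR adjusted p = 0.234). Icam4 had no counts in any library (at 0 or without a row). Cldn13 was at 0 in all CUMS libraries, with 0, 5 and 29 estimated counts in Control. The summed level of the marker list was 1008 to 1080 CPM in CUMS and 960 to 977 CPM in Control, but Nfe2, Bnip3l and Mkrn1, which neutrophils also express, made up 796 to 862 CPM in CUMS and 806 to 820 CPM in Control. Without these 3 the sum was 212 to 219 CPM in CUMS and 151 to 166 CPM in Control.

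**Figure D4:**
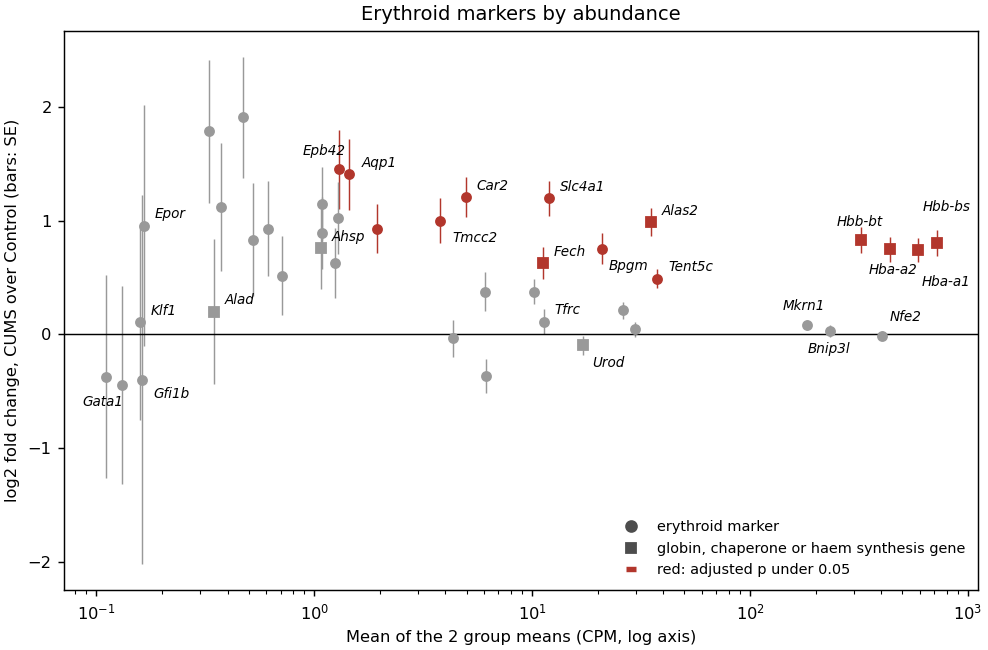
Log2 fold change of CUMS over Control with its SE (y axis) against abundance, the mean of both group means in CPM on a log axis, for the 33 tested erythroid markers (circles) and the 9 globin, chaperone and haem synthesis genes (squares). Genes past the threshold are red: the 4 globin genes lie between 0.74 and 0.83 at the right, the membrane and enzyme genes between 0.49 and 1.45, and the abundant Nfe2, Bnip3l and Mkrn1 near 0.

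The libraries' pattern was compared with that of every other gene of at least 1 CPM. The average centred log2 CPM profile of the 4 adult globin genes over the 6 libraries was 0.57, 0.31 and 0.31 in CUMS replicates 1 to 3 and -0.44, -0.11 and -0.63 in Control replicates 1 to 3. Among 11026 candidate genes, the smallest root mean square distance from it was that of Bpgm, at 0.052 on the log2 scale. Acad10, Tnfrsf4, Wdcp, 4930522L14Rik and Gm36317 followed at 0.081 to 0.12 and did not pass between groups (edgeR adjusted p 0.0575 to 0.223). Tmcc2 lay at 0.158 and Gm30603 at 0.161, and both rose (edgeR adjusted p = 0.0149 and 0.0106). The Tmcc2 call ended on leaving out the first or last Control library or the first CUMS library (0.0534 to 0.0689), and the Gm30603 call without CUMS replicate 3 (0.0586). The tenth was H2-K1, a classical MHC class I gene, at 0.164, which rose by 0.79 ± 0.039 (edgeR adjusted p = 2.23e-06) with little spread within groups. Alas2 lay at 0.129 and Fech at 0.15, with 6 and 7 candidate genes closer. Ahsp lay at 0.352, Urod at 0.499 and Alad at 0.717. The distances describe 6 libraries that differ by group, and a gene that differs between the groups in the same direction is nearer by construction.

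**Figure D5:**
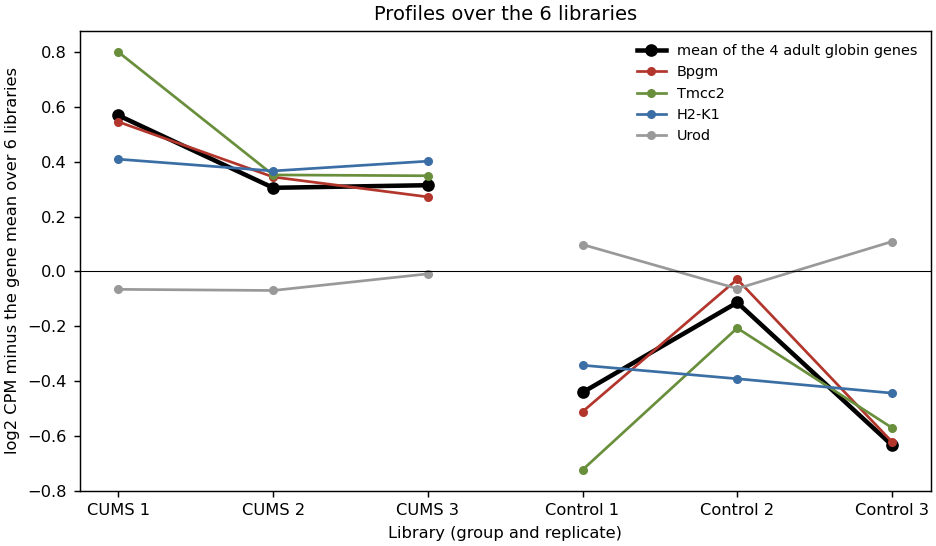
Log2 CPM minus each gene's mean over the 6 libraries (y axis) by library (x axis, CUMS left, Control right) for the average of the 4 adult globin genes (black) and for Bpgm, Tmcc2, H2-K1 and Urod. Bpgm follows the globin average within both groups, including the higher Control replicate 2 at -0.03 against -0.11, whereas H2-K1 differs between groups with nearly level values inside them and Urod stays within 0.11 of its mean.

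Some markers of other cell types differed between the same groups, and their part in the results was not tested. Over all genes tested, 48.44% had a log2 fold change above 0. Of 9 eosinophil markers, 9 had log2 fold changes above 0 and 2 rose (Prg2 by 2.45 ± 0.21 and Epx by 3.68 ± 0.73, SE; edgeR adjusted p = 6.9e-05 and 0.0156). The Epx call ended on leaving out the last Control library or either of the CUMS libraries 2 and 3 (0.0627 to 0.0714). Epx had 17, 0 and 12 estimated counts in Control, near the floor. The eosinophil list summed to 51.6 to 60.3 CPM in CUMS and 44.9 to 51.9 CPM in Control, overlapping ranges. Its most abundant genes, Ear2 and Siglecf, named after their values were seen, did not pass. Their means were 27 and 20.1 CPM in CUMS and 26.4 and 19.2 CPM in Control. Of 13 monocyte and macrophage markers, F13a1 and Csf1r rose, by 1.34 ± 0.23 and 0.19 ± 0.041 (edgeR adjusted p = 0.00762 and 0.0251), the Csf1r call ending whenever 1 library other than CUMS replicate 1 was left out (0.058 to 0.114), with sums of 254 to 262 CPM in CUMS and 225 to 231 CPM in Control. Csf1r alone made up 199 to 202 CPM of these sums in CUMS and 170 to 180 CPM in Control. Log2 fold changes were above 0 in 9 of the 13, and 11 did not pass. Of 12 markers of the macrophages of erythroblastic islands, Slc40a1, the iron exporter ferroportin, rose by 0.33 ± 0.036 (edgeR adjusted p = 0.00042), and the list summed to 551 to 570 CPM in CUMS and 447 to 458 CPM in Control. Without Slc40a1, the other 11 markers summed to 32.8 to 39.8 CPM in CUMS and 34.7 to 37.3 CPM in Control, overlapping ranges, and 6 of them had log2 fold changes above 0. All 11 B cell markers had log2 fold changes above 0 and 0 passed with edgeR (1, Pax5, with DESeq2 and at an unadjusted edgeR p under 0.05), with sums of 36.3 to 41.9 CPM in CUMS and 24.6 to 33.1 CPM in Control. Of 9 basophil and mast cell markers, 8 were tested, Il4 having no counts in any library (at 0 or without a row). Hdc fell by 0.35 ± 0.034 (edgeR adjusted p = 0.000188) and 0 rose. None of the 8 had a log2 fold change above 0, DESeq2 called 3 (Hdc, Gata2 and Ms4a2), and 4 were at an unadjusted edgeR p under 0.05. The list summed to 818 to 849 CPM in CUMS and 1050 to 1068 CPM in Control, and without Hdc to 5.47 to 6.95 CPM in CUMS and 9.31 to 10.6 CPM in Control.

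Of 6 tested platelet and megakaryocyte markers, 0 passed with edgeR, 0 with DESeq2 and 0 at an unadjusted edgeR p under 0.05, with sums of 165 to 169 CPM in CUMS and 159 to 178 CPM in Control, and the platelet genes Pf4 and Ppbp were too low to be tested. T and NK cell markers, of which 6 were tested with the same counts of 0, summed to 4.71 to 6.71 CPM in CUMS and 4.64 to 6.74 CPM in Control. Of 4 tested endothelial and stromal markers, 0 passed with edgeR, 1 with DESeq2 (Col1a1) and 3 at an unadjusted edgeR p under 0.05. These 3 went both ways. Col1a1 and Cxcl12, the latter named after its values were seen, had log2 fold changes of 0.57 ± 0.17 and 1.13 ± 0.47 (SE). Kdr had -3.91 ± 1.29 (SE), at means of 0.0158 CPM in CUMS and 0.235 CPM in Control. The list summed to 18.1 to 20.8 CPM in CUMS and 15.7 to 16.9 CPM in Control. Of the 12 neutrophil markers, Mmp9 rose by 0.12 ± 0.029 and Ltf and Camp fell by 0.11 ± 0.028 and 0.27 ± 0.069 (SE; edgeR adjusted p = 0.038, 0.0437 and 0.0459). The Mmp9 and Ltf calls ended with no filter on low counts (0.062 and 0.14), and each also under 4 or more other alternatives, among them Ltf under both other scalings (0.0595 and 0.0628). Camp was named after its values were seen, and its call was not followed through every alternative. DESeq2 did not call Camp. It called 3 of the 12 (Csf3r, Ltf and Mmp9). Log2 fold changes were above 0 in 3 of the 12. At an unadjusted edgeR p under 0.05 were 7, with Csf3r and Mmp9 above 0 and Camp, Ltf, Ngp, S100a8 and S100a9 below. The list summed to 111150 to 138110 CPM in CUMS and 130360 to 142440 CPM in Control, overlapping ranges.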

How the data were processed

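Total RNA of sorted bone marrow neutrophils was sequenced in 3 CUMS and 3 Control libraries (TruSeq RNA kit from 1 µg of total RNA, paired 150 bp reads, per the labels' protocols). The submitters' processing notes name the mm10 build, HISAT2 2.1 and featureCounts 1.6.4, also cutadapt 1.16.5 and bcl2fastq 2.19, and DESeq2 2.11.40.6, with no role or order. The deposited values are estimated counts per gene, not normalized, as judged from the values: multiples of 4 were in excess (the value 4 occurred 1.89 times as often as adjacent values, the value 16 still 1.38 times), so 1 read pair is worth about 4, and the libraries correspond to 19711364 to 27439390 read pairs. Strandedness, and the handling of reads shared between copies, were not stated. Floors cover counting error only.

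The deposited values are whole numbers and were fitted as such with edgeR 4.0.16 (R 4.3.3) by the quasi-likelihood F test. The fit used TMM scaling, filterByExpr and group as the only term, over 15778 genes with Benjamini-Hochberg adjustment at 0.05. The SE of a log2 fold change was taken from the F statistic. An exact permutation test of 3 against 3 libraries cannot go below a p of 0.1 and was not used. For profiles, CPM were put on a log2 scale after adding a prior count of 2. The fit was also run on simulated counts, which lacked the steps of about 4 per read pair, and the outcome is not reported here. The named genes are the 9 members, the other haem synthesis enzymes, up to 4 genes of smallest adjusted p per other list (2 per cell type list) and the 10 nearest profiles. Some of the genes these rules name are not reported here. The members and lists were chosen with earlier results of these data known. Promoter sequences are RefSeq's on GRCm38.p6, found for 7 of the 9 members, and gene positions are GENCODE M21's on GRCm38. Alternatives were other scalings, DESeq2 1.42.0, limma 3.58.1 voom, no filter, counts divided by 4, a replicate block and leaving out each library.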

Additional observations from a re-analysis of the deposited data

How the results depend on the processing

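The 4 globin genes and Alas2 stayed higher in CUMS and past the threshold in all 14 alternatives, and Alas1 stayed lower and past it. Of the 9 genes, 5 to 6 were called without single libraries. Genes called numbered 1150 with DESeq2, 462 with no filter on low counts and 305 to 697 without single libraries, beside 710. Other haem enzymes called numbered 1 with no filter, 1 under the replicate block and 1 to 2 without single libraries, and erythroid markers called numbered 5 with no filter and 4 to 7 without single libraries. The cause was not tested. Reversed log2 fold changes, all of genes that did not pass, were Alad (-0.0080 without Control replicate 2, -0.22 without CUMS replicate 3), Uros (0.013 without CUMS replicate 2, 0.022 without CUMS replicate 3), Ppox (-0.022 without Control replicate 1, -0.028 without CUMS replicate 2) and the T cell gene Cd2 (-0.034 with voom, -0.14 without CUMS replicate 1). Without single libraries, Alad reached 0.69, Uros -0.16, Ppox 0.048 and Cd2 0.38 at the other end. The globin share ratio stayed between 1.59 and 1.92 without single libraries, and alpha over beta between 0.943 and 0.967.

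Deviations from the group means correlated weakly between same-numbered libraries (r = 0.0717, 0.0581 and 0.00643 across genes). Between differently numbered libraries r ran from -0.0816 to 0.0395. Deviations from means of 3 libraries are tied to each other, so these values cannot settle whether same-numbered libraries were paired. The numbers are used here as library names only. The replicate block gave 931 genes called, 6 of the 9 genes and 7 erythroid markers. Ahsp and Alad had few read pairs, and the parts of depth and of spread between libraries in their results were not tested.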
